A study of Mus musculus with 16 samples.

Results

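A set of 10 genes that carry a dividing cell from G1 into S phase was followed in the lungs of newborn mice after ozone: the cyclins Ccnd1, Ccnd2, Ccne1 and Ccne2, the phosphatase Cdc25a, the transcription factors E2f1 and E2f8, and the origin genes Orc1, Cdc6 and Cdt1. They were chosen by name, as the probes that are not controls and whose gene name, or an older synonym such as Orc1l, is one of these 10. All 10 were measured, of 21630 genes with a usable signal, by 17 probes, each well above background on every one of the 16 arrays. Pups of the inbred strain BALB/c, 3 days old, were exposed to 1000 ppb of ozone or to filtered air over 3 h, and whole lungs were taken 6 h or 24 h later. The 4 groups were ozone at 6 h, air at 6 h, ozone at 24 h and air at 24 h, with 4 lungs each on 16 one-colour Agilent arrays, 1 mouse per array. The air pups were littermates of the ozone pups, pups were cross-fostered so that each had a dam during exposure, and the time points were run separately, so a difference between times cannot be told apart from a difference between runs.

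The step from G1 to S is gated by the retinoblastoma pocket proteins, which hold E2F transcription factors in check until cyclin D and then cyclin E kinases phosphorylate them. Freed E2F1 switches on cyclin E, its own gene and many genes of DNA synthesis, while the atypical member E2F8 is itself an E2F target and shuts the same genes down later in S phase. Before S phase, the origin recognition complex, with Cdc6 and Cdt1, loads the MCM helicase onto DNA. In the first days after birth the growing mouse lung holds many dividing cells.

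Of the 10 genes, 7 had a window listed as a promoter in the RefSeq table used here (GRCm38.p6), from 250 bases before to 50 after the annotated start. The windows were searched on both strands for the E2F core words TTCCCGC, its variant TTCGCGC, the variant TTGCCGC and the variant TTGGCGC, and 5 of the 7 held at least 1, against 9.57% of all 32851 promoters in the table and 16.7% of the 13434 fitted genes with a promoter there. E2f8 held TTGGCGC 111 bases before the start, Cdc6 held TTCCCGC on the reverse strand 138 bases before it, and Orc1 held TTCGCGC on the reverse strand 27 bases before it. Cdc25a held TTGGCGC on both strands in a single palindrome, with overlapping matches 66 and 63 bases before the start, and Cdt1 held 2 words 19 and 34 bases after its start. The windows of Ccne1 and E2f1 held none of these words, which says nothing of whether an E2F binds there. The first part of that of E2f1 reads in frame as coding sequence of E2F1, so bases upstream of its coding start were not searched. It still counts among the 7. The 250 bases before the start are printed 5′ to 3′ along the gene for 3 genes that fell after ozone (E2f8, Cdc6, Orc1) and for Cdc25a, which was called at neither time, with the matched words in capitals.
E2f8, chr7:48881597-48881846, minus strand: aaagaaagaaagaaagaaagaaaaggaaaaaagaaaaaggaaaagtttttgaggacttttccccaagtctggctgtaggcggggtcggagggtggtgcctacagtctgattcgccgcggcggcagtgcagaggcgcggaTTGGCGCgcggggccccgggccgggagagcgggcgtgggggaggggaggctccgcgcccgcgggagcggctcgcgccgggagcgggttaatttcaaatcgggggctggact
Cdc6, chr11:98907901-98908150, plus strand: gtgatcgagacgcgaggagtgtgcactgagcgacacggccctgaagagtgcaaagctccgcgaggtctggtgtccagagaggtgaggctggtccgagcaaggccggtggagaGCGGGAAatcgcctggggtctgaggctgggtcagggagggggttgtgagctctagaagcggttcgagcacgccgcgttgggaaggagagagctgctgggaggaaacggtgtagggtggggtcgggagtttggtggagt
Orc1, chr4:108579204-108579453, plus strand: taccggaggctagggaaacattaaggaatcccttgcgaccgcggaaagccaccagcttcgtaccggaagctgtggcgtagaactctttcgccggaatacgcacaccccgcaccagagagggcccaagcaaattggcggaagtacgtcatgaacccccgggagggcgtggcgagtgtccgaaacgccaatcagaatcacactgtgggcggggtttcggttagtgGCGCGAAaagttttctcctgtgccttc
Cdc25a, chr9:109875329-109875578, plus strand: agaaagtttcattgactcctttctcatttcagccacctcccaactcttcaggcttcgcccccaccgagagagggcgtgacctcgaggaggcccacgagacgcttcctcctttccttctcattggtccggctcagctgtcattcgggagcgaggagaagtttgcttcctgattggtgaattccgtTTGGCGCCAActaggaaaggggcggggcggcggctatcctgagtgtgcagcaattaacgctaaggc

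Values are log2 of the processed signal relative to the 75th percentile of the array, and they are listed for replicates 1 to 4 in turn. Of several probes of a gene the brightest was used, and no level was set against that of another gene. A gene was called when its Benjamini-Hochberg adjusted p from limma, over all 21630 genes, was under 0.05, and errors of differences are standard errors with 4 arrays per group. The 75th percentile ranged over the arrays from a signal of 574 to 946, and the share of spots well above background from 65.0% to 83.9%, the top value being that of ozone replicate 3 of 6 h. All 8 whole-lung markers (Sftpc, Sftpb, Scgb1a1, Ager, Pecam1, Col1a1, Foxj1, Ptprc) were measured and none was called at either time. At each time, replicates 1 and 2 of both exposures shared an array slide, called the first here, and replicates 3 and 4 another, called the second, so differences are also given within each slide.

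At 6 h after ozone, 8 of the 10 genes fell, and none rose: Ccne1, Ccne2, Ccnd1, E2f1, E2f8, Cdc6, Cdt1 and Orc1. Ccnd2 and Cdc25a did not pass the test. Over all genes, 3.12% were called lower and 1.36% higher (4.48% either way), and the median difference of the 10 genes was -0.56, against 0.07 over all genes. In 7 of the 10 (all that were called except Cdc6) every ozone lung lay below every air lung, against 4.87% of all genes. At 24 h, 5 of the 10 fell (Ccne1, E2f1, E2f8, Cdt1 and Orc1) and none rose, against 1.32% called lower and 0.684% called higher over all genes (2.01% either way). The median difference of the 10 genes at 24 h was -0.45, against 0.02 over all genes, and 6 of them (the 5 called and Cdc6) had no overlap between ozone and air lungs, against 4.97% of all genes. Taken probe by probe, 11 of the 17 probes were called lower at 6 h and 7 at 24 h, against 2.62% and 1.12% of all 32343 probes. The normexp background is another way to subtract the local signal around each spot, and here an offset of 50 was added to each signal. With it, the 6 h differences of Ccne2 (-0.58), E2f8 (-0.18) and Orc1 (-0.10) no longer passed. Those of E2f1 (-0.40) and Cdc6 (-0.53) were smaller and still did. The background method and the offset were not tested apart. With only the 8 arrays of 6 h in the fit, Ccne1 and E2f1 were called, and Ccne2, Ccnd1, E2f8, Cdc6, Cdt1 and Orc1 were not (limma adjusted p = 0.0594 to 0.143). With same-numbered lungs of a time as a block (the replicate block), only Ccne1, Ccne2 and E2f1 were called at 6 h. At 24 h only Ccne1 and E2f8 were called with this block. With Xist as a covariate for sex, the calls of Ccnd1 and E2f8 at 6 h and of Cdt1 and Orc1 at 24 h were lost, and within single slides, with 2 arrays per group, the only calls were those of Ccne1, E2f8 and Cdt1 at 24 h on the second. In whole tissue, fewer cells of a type and less RNA per cell cannot be told apart. The count of 8 at 6 h was 7 without ozone replicate 3, 5 without ozone replicate 2 and 2 (Ccne1 and E2f1) without air replicate 4, and the count of 5 at 24 h was 2 when ozone replicate 3 or air replicate 3 was left out and 3 when ozone replicate 4, air replicate 1 or air replicate 4 was.

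**Figure D1:**
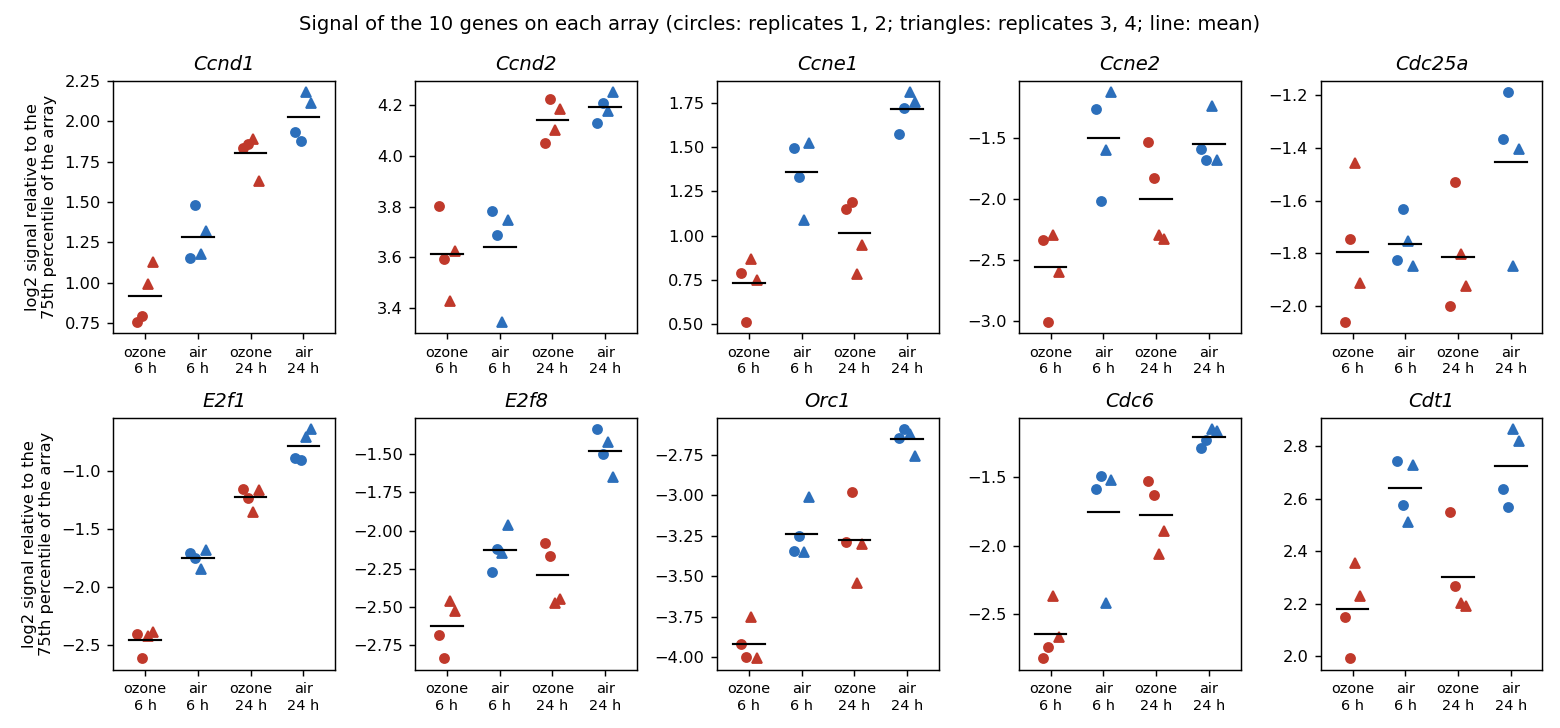
Log2 signal of each of the 10 genes relative to the 75th percentile of the array (y axis) in ozone and air lungs at 6 h and 24 h (x axis); each point is 1 array, circles are replicates 1 and 2, triangles replicates 3 and 4, and lines are means of 4 arrays. Ozone points lie below all air points of the same time for 7 genes at 6 h and 6 genes at 24 h, while those of Ccnd2 and Cdc25a overlap the air points at both times.

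**Figure D2:**
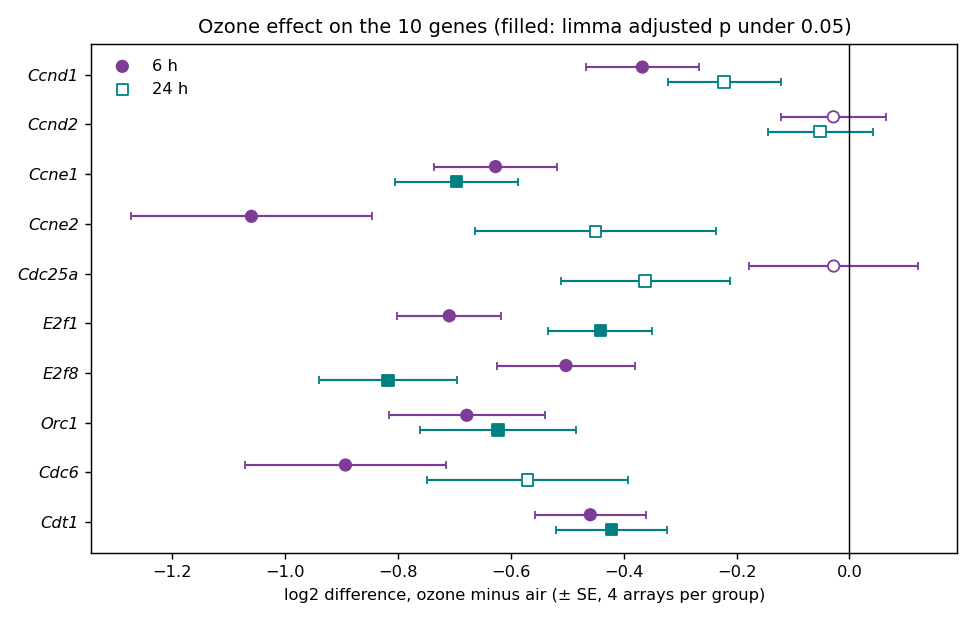
Difference between ozone and air lungs for each gene on the log2 scale (x axis) at 6 h (circles) and 24 h (squares), with bars of 1 standard error and 4 arrays per group; filled symbols have a limma adjusted p under 0.05. All 10 genes lie below 0 at both times, though the sign turned in other settings for Ccnd2 at both times and for Cdc25a at 6 h, and Ccne2 lies farthest at 6 h (-1.06) and E2f8 farthest at 24 h (-0.82).

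The D-type cyclins start the switch by activating Cdk4 and Cdk6, and they respond to growth factors. Ccnd1 was read by a probe printed 10 times on the array, at chr7:152116173-152116232 (mm9, minus strand). Its 6 h values were 0.76, 0.79, 0.99 and 1.13 in ozone lungs, against 1.16, 1.48, 1.18 and 1.32 in air lungs. The highest ozone lung, replicate 4, lay just below the lowest air lung, replicate 1, so the groups did not overlap. The level after ozone was 77.5% of the air level (difference -0.37 ± 0.10, limma adjusted p = 0.0458), with -0.54 on the first slide and -0.19 on the second. This call was at the edge: with the slide as a block the adjusted p was 0.054, and when each of the 16 arrays was left out in turn 3 fits kept the call (without replicate 4 of ozone at 6 h, replicate 4 of ozone at 24 h or replicate 3 of air at 24 h) while the other fits gave limma adjusted p-values of up to 0.143 (without replicate 4 of air at 6 h). At 24 h Ccnd1 averaged 1.80 ± 0.12 in ozone lungs and 2.03 ± 0.15 in air lungs (SD, n = 4 each), the groups overlapped, and the difference of -0.22 ± 0.10 did not pass (limma adjusted p = 0.334; -0.06 on the first slide and -0.39 on the second).

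Ccnd2, the other D-type cyclin of the set, was close to the air level at both times. Its main probe lies at chr6:127089187-127089246 (mm9, minus strand). At 6 h it averaged 3.61 ± 0.15 in ozone lungs and 3.64 ± 0.20 in air lungs, and at 24 h 4.14 ± 0.08 in ozone lungs and 4.19 ± 0.05 in air lungs (SD, n = 4 each). Ozone and air lungs overlapped at both times. The difference was -0.03 ± 0.09 at 6 h (95% interval -0.23 to 0.17, limma adjusted p = 0.881) and -0.05 ± 0.09 at 24 h (95% interval -0.25 to 0.14, limma adjusted p = 0.918). Its 2 other probes differed by -0.02 ± 0.10 and -0.03 ± 0.09 at 6 h and by 0.04 ± 0.10 and -0.01 ± 0.09 at 24 h. The sign at 6 h turned with quantile normalization (0.04) and with the deposited log2 values (0.04), so no direction is given for Ccnd2.

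Cyclin E1, which activates Cdk2 at the border of S phase and is itself an E2F target, fell at both times. Both Ccne1 probes are listed at chr7:38882937-38882960 (mm9, minus strand). The 6 h values were 0.79, 0.52, 0.87 and 0.75 in ozone lungs, against 1.49, 1.33, 1.09 and 1.52 in air lungs. Replicate 2 was the lowest of the ozone lungs and replicate 3 the lowest of the air lungs, and the groups did not overlap. The level was 64.7% of that in air (difference -0.63 ± 0.11, limma adjusted p = 0.0057). Its 24 h values were 1.15, 1.19, 0.78 and 0.95 in ozone lungs, against 1.57, 1.72, 1.81 and 1.75 in air lungs. The ozone lungs of replicates 3 and 4 were the lowest of the 8 lungs, and again no ozone lung reached the air range. The level was 61.7% of that in air (difference -0.70 ± 0.11, limma adjusted p = 0.00183). Within slides Ccne1 differed at 6 h by -0.76 on the first slide and -0.50 on the second, and at 24 h by -0.48 on the first slide and -0.92 on the second. Its other probe also fell, with -0.48 ± 0.12 at 6 h (limma adjusted p over probes = 0.0354) and -0.62 ± 0.12 at 24 h (limma adjusted p over probes = 0.0108). At both times the call of Ccne1 held whichever of the 16 arrays was left out.

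Cyclin E2, a close relative of cyclin E1 and also an activator of Cdk2, had the largest difference of the 10 genes at 6 h and did not pass at 24 h. The main Ccne2 probe lies at chr4:11130171-11130230 (mm9, plus strand). At 6 h its values were -2.34, -3.01, -2.29 and -2.60 in ozone lungs, against -1.26, -2.02, -1.60 and -1.12 in air lungs. The highest ozone lung, replicate 3, was below the lowest air lung, replicate 2. The level was 48.0% of that in air (difference -1.06 ± 0.21, limma adjusted p = 0.0129), with -1.03 on the first slide and -1.09 on the second. Without air replicate 4 of 6 h the adjusted p of this limma call was 0.0647. The 24 h values were -1.53, -1.83, -2.30 and -2.32 in ozone lungs, against -1.58, -1.68, -1.23 and -1.68 in air lungs. Ozone replicate 1 lay within the air range and ozone replicates 3 and 4 lay clearly below it. The difference was -0.45 ± 0.21 (95% interval -0.90 to 0.00, limma adjusted p = 0.377), and the slides stood apart, with -0.05 on the first slide and -0.85 on the second. A second Ccne2 probe differed by -1.17 ± 0.20 at 6 h (limma adjusted p over probes = 0.00639) and by -0.57 ± 0.20 at 24 h (limma adjusted p over probes = 0.234).

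Cdc25a removes the inhibitory phosphates from Cdk2, so that cyclin E kinase becomes active, and its promoter held the E2F palindrome printed above. Its main probe lies at chr9:109795020-109795082 (mm9, plus strand). Its 6 h values were -2.06, -1.75, -1.46 and -1.91 in ozone lungs, against -1.83, -1.63, -1.76 and -1.85 in air lungs. Ozone replicate 3 was the highest and ozone replicate 1 the lowest of the 8 lungs, so the air lungs sat inside the ozone range. The difference was -0.03 ± 0.15 (95% interval -0.34 to 0.29, limma adjusted p = 0.93), its sign differed between slides (-0.17 on the first and 0.12 on the second), and it was 0.08 with the normexp background, so no direction is given for 6 h. At 24 h the values were -2.00, -1.53, -1.80 and -1.92 in ozone lungs, against -1.37, -1.19, -1.85 and -1.41 in air lungs. Ozone replicates 2 and 3 and air replicate 3 lay inside the range of the other group. The level was 77.8% of that in air (difference -0.36 ± 0.15, 95% interval -0.68 to -0.05, limma adjusted p = 0.28), with -0.49 on the first slide and -0.24 on the second. The second probe differed by -0.12 ± 0.18 at 6 h and -0.39 ± 0.18 at 24 h, and passed at neither time.

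E2f1, the activator that opens the S-phase program, had the smallest adjusted p of the 10 genes at 6 h and fell at both times. The main E2f1 probe lies at chr2:154386004-154386063 (mm9, minus strand). The 6 h values were -2.40, -2.61, -2.42 and -2.39 in ozone lungs, against -1.71, -1.75, -1.85 and -1.68 in air lungs. The ozone lungs lay close together apart from replicate 2, and the gap to the air lungs exceeded the range of either group. The level was 61.2% of that in air (difference -0.71 ± 0.09, limma adjusted p = 0.000884). Its 24 h values were -1.16, -1.24, -1.36 and -1.17 in ozone lungs, against -0.89, -0.91, -0.71 and -0.64 in air lungs. No ozone lung reached the air range, and the level was 73.6% of that in air (difference -0.44 ± 0.09, limma adjusted p = 0.0155). E2f1 differed within slides at 6 h by -0.78 on the first slide and -0.64 on the second, and at 24 h by -0.30 on the first slide and -0.59 on the second. At 6 h the call held whichever of the 16 arrays was left out, and at 24 h the limma adjusted p was 0.068 with ozone replicate 3 left out, 0.0597 with air replicate 3 left out and 0.0638 with air replicate 4 left out. A second probe, printed 10 times, fell by 0.60 at 6 h (limma adjusted p over probes = 0.00911) and by 0.48 at 24 h (limma adjusted p over probes = 0.0321).

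E2f8, the atypical repressor that is induced by other E2Fs, fell at both times and had the largest difference of the 10 genes at 24 h. Its single probe lies at chr7:56122022-56122081 (mm9, minus strand). At 6 h its values were -2.68, -2.84, -2.46 and -2.53 in ozone lungs, against -2.27, -2.12, -2.15 and -1.96 in air lungs. The groups did not overlap, with ozone replicates 1 and 2 the lowest lungs. The level was 70.6% of that in air (difference -0.50 ± 0.12, limma adjusted p = 0.0292), with -0.57 on the first slide and -0.44 on the second. That adjusted p of the limma fit was 0.0663 with ozone replicate 1 left out, 0.0734 with ozone replicate 2 left out and 0.122 without air replicate 4. The 24 h values were -2.08, -2.17, -2.48 and -2.45 in ozone lungs, against -1.33, -1.50, -1.42 and -1.65 in air lungs. Here ozone replicates 3 and 4 were the lowest, and no ozone lung reached the air range. The level was 56.7% of that in air (difference -0.82 ± 0.12, limma adjusted p = 0.00125), with -0.71 on the first slide and -0.93 on the second, and the call held whichever of the 16 arrays was left out.

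Orc1 encodes the largest subunit of the origin recognition complex, and its transcription is driven by E2F. Its single probe, named Orc1l in the files, is listed across chr4:108284772-108285679 (mm9, plus strand). Its 6 h values were -3.91, -3.99, -3.75 and -4.00 in ozone lungs, against -3.34, -3.25, -3.35 and -3.01 in air lungs. All ozone lungs lay below all air lungs, and air replicate 4 was the highest of the 8. The level was 62.5% of that in air (difference -0.68 ± 0.14, limma adjusted p = 0.0131), with -0.66 on the first slide and -0.70 on the second. Without air replicate 4 the limma adjusted p was 0.0687, and with the normexp background the difference was -0.10 (adjusted p = 0.736). At 24 h the values were -3.29, -2.98, -3.54 and -3.30 in ozone lungs, against -2.65, -2.59, -2.62 and -2.76 in air lungs. The air lungs lay close together, and ozone replicate 2 was the nearest to them without reaching their range. The level was 65.0% of that in air (difference -0.62 ± 0.14, limma adjusted p = 0.0235), with -0.52 on the first slide and -0.73 on the second. Leaving out 1 array at a time ended this call in 6 of 16 fits, with limma adjusted p-values of 0.056 to 0.0923 (leaving out ozone replicate 1, 3 or 4 or air replicate 1, 2 or 3). The call was also lost with normexp, quantile normalization, the deposited log2 values, Xist as a covariate, the replicate block (limma adjusted p = 0.0791) and within either slide.

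Cdc6, the ATPase that with Cdt1 loads the helicase at origins, fell at 6 h. Its main probe lies at chr11:98782573-98782632 (mm9, plus strand). The 6 h values were -2.82, -2.74, -2.36 and -2.66 in ozone lungs, against -1.59, -1.49, -2.41 and -1.52 in air lungs. Air replicate 3 stood far below the other air lungs and just below ozone replicate 3, so the groups overlapped through that lung. The level was 53.8% of that in air (difference -0.89 ± 0.18, limma adjusted p = 0.0118), with -1.24 on the first slide and -0.55 on the second. Without air replicate 3 the difference was -1.11 (limma adjusted p = 0.000999), and without air replicate 4 the adjusted p was 0.0581. Its 24 h values were -1.53, -1.63, -2.06 and -1.89 in ozone lungs, against -1.28, -1.23, -1.15 and -1.16 in air lungs. The air lungs lay close together and above every ozone lung, and ozone replicates 3 and 4 were the lowest. The difference of -0.57 ± 0.18 (67.3% of the air level; -0.32 on the first slide and -0.82 on the second) did not pass, with a limma adjusted p of 0.124. With air replicate 3 of 6 h left out the 24 h difference had a limma adjusted p of 0.0194. A second Cdc6 probe differed by -0.75 ± 0.17 at 6 h (limma adjusted p over probes = 0.0258) and by -0.49 ± 0.17 at 24 h (limma adjusted p over probes = 0.219).

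Cdt1, the other loader of the helicase, which is destroyed once S phase begins, fell at both times. Its single probe lies at chr8:125096893-125096952 (mm9, plus strand). At 6 h its values were 2.15, 1.99, 2.35 and 2.23 in ozone lungs, against 2.74, 2.58, 2.51 and 2.73 in air lungs. The groups did not overlap, and ozone replicate 2 was the lowest. The level was 72.7% of that in air (difference -0.46 ± 0.10, limma adjusted p = 0.0171), with -0.59 on the first slide and -0.33 on the second. Its limma adjusted p was 0.051 without ozone replicate 2 and 0.0746 without air replicate 4. The 24 h values were 2.55, 2.27, 2.20 and 2.19 in ozone lungs, against 2.64, 2.57, 2.87 and 2.82 in air lungs. Ozone replicate 1 came just below the lowest air lung, replicate 2, and the other ozone lungs lay lower. The level was 74.7% of that in air (difference -0.42 ± 0.10, limma adjusted p = 0.0322), with -0.19 on the first slide and -0.65 on the second. Leaving out 1 array at a time ended this call in 6 of 16 fits, with limma adjusted p-values of 0.0553 to 0.107 (leaving out ozone replicate 2, 3 or 4 or air replicate 1, 3 or 4). The call was also lost with the replicate block (limma adjusted p = 0.107), with Xist as a covariate (0.0688), without a trend in the fit (0.0697), with only the arrays of 24 h (0.0501) and within the first slide (0.508).

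Set across the genes, the 2 slides of a time gave differences of unequal size. At 6 h, 9 of the 10 genes were lower after ozone in both slides (Cdc25a was not), and 2 of the 10, Ccne2 and Orc1, were farther below air on the second slide. At 24 h all 10 were lower in both slides, and 9 of the 10 (all but Cdc25a) were farther below air on the second slide. Ccnd2, given no direction above, enters these counts by sign alone (-0.04 and -0.02 at 6 h, -0.03 and -0.07 at 24 h). The share of all genes with these patterns was not counted. The mean of the 10 genes per array, each gene centred on its 8 arrays of that time, spanned -0.42 to -0.12 in ozone lungs at 6 h, against 0.09 to 0.41 in air lungs, and -0.38 to -0.10 in ozone lungs at 24 h, against 0.20 to 0.28 in air lungs. At 24 h the 2 lowest ozone lungs by this mean were replicates 3 and 4, on the same slide. Taking slide as a block left 7 of the 10 called at 6 h and 5 at 24 h, all lower. Over all 21630 genes this fit called 619 lower at 6 h and 277 lower at 24 h. What differed between the slides was not tested.

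**Figure D3:**
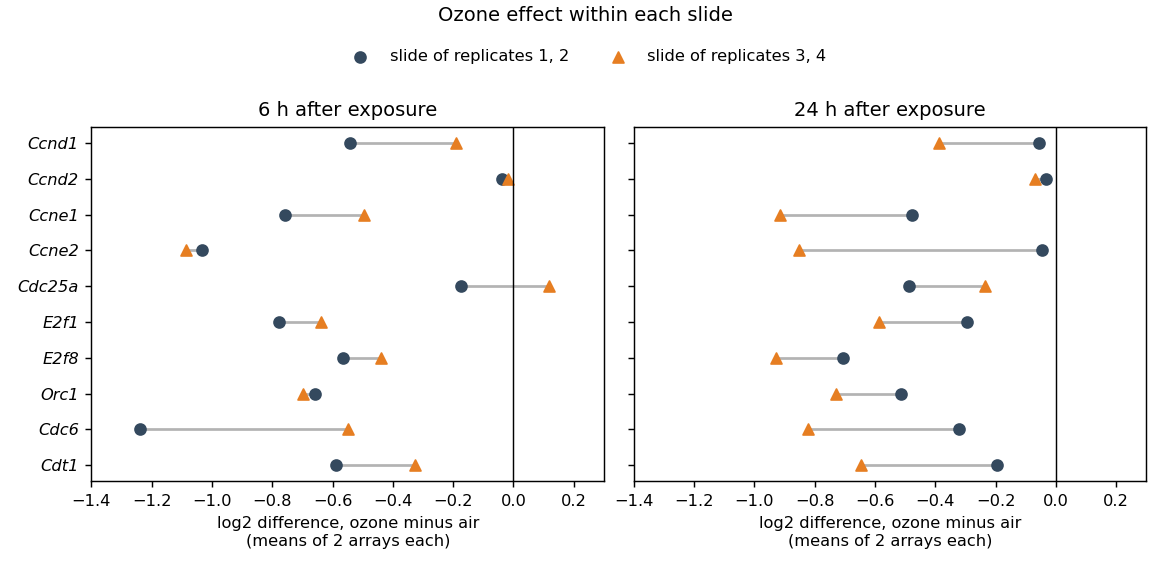
Difference between ozone and air lungs on the log2 scale (x axis) for each gene within the slide of replicates 1 and 2 (circles) and within that of replicates 3 and 4 (triangles), at 6 h and at 24 h; each point is a difference of means of 2 arrays each. At 24 h the triangle lies left of the circle for 9 of the 10 genes.

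Whether the ozone effect changed between 6 h and 24 h was asked of the difference of the 2 effects, 24 h minus 6 h. In the limma fit none of the 10 genes was called, against 0.0647% of all genes, and at an unadjusted p under 0.05 none passed either. Ccne2 had the largest difference, 0.61 ± 0.30 (95% interval -0.03 to 1.25, limma adjusted p = 0.419), being closer to air at 24 h. E2f8 had one of -0.32 ± 0.17 (95% interval -0.68 to 0.05, limma adjusted p = 0.468), being farther from air at 24 h. By value, 6 of the 10 were closer to air at 24 h and 4 farther, and the 95% interval of every gene spanned 0. A call at 6 h and none at 24 h, as for Ccne2, Ccnd1 and Cdc6, does not show that their effects differed.

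The levels themselves were higher at 24 h than at 6 h in air lungs for 7 of the 10 genes, with no overlap between the air groups, against 22.6% of all genes. These 7 were E2f1 (difference 0.96), Ccnd1 (0.74), E2f8 (0.65), Orc1 (0.58), Ccnd2 (0.55), Cdc6 (0.55) and Ccne1 (0.36). Age and run go together here and cannot be told apart, so no test was made. For Ccne2 (-0.04), Cdt1 (0.08) and Cdc25a (0.31) the air groups overlapped. Ordered by mean, air at 24 h was the highest group for all genes but Ccne2, and ozone at 6 h the lowest for all but Cdc25a.

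Other cell cycle genes were taken from 4 lists and described by counts, with the share of all genes called lower (3.12% at 6 h and 1.32% at 24 h) beside them. Of 19 other genes of origin recognition, licensing and firing, 12 fell at 6 h and 8 at 24 h, none rose, and the median difference was -0.42 at both times. At 6 h the smallest p-values belonged to Cdc45 (-0.86 ± 0.12, limma adjusted p = 0.002), which joins the MCM ring to form the active helicase, and to the ring subunits Mcm6 (-0.79 ± 0.12, adjusted p = 0.00245), Mcm5 (-0.75 ± 0.12, adjusted p = 0.0027) and Mcm2 (-0.67 ± 0.11, adjusted p = 0.00347). At 24 h they belonged to Dbf4 (-0.74 ± 0.09, limma adjusted p = 0.000266), which activates the origin-firing kinase Cdc7, to Topbp1 (-0.55 ± 0.07, adjusted p = 0.0006), Cdc45 (-0.71 ± 0.12, adjusted p = 0.00412) and Mcm5 (-0.59 ± 0.12, adjusted p = 0.0097). Of 15 other E2F, DP and pocket protein genes, 2 fell at 6 h and 4 at 24 h (medians -0.11 and -0.07), and none rose. Tfdp1, a partner with which E2Fs such as E2F1 bind DNA, fell at 6 h (-0.38 ± 0.07, limma adjusted p = 0.00878) and 24 h (-0.35 ± 0.07, adjusted p = 0.0164). Rbl1, the pocket protein p107, fell at 6 h (-0.40 ± 0.09, limma adjusted p = 0.019) and 24 h (-0.49 ± 0.09, adjusted p = 0.0052). At 24 h E2f7, the close relative of E2f8, fell as well (-0.63 ± 0.12, limma adjusted p = 0.00807), as did Lin54 (-0.38 ± 0.09, adjusted p = 0.0461), whose call held in 5 of 16 fits with an array left out. The call of Rbl1 at 6 h was lost without ozone replicate 2 or air replicate 4, and that of Tfdp1 at 24 h without ozone replicate 1 or air replicate 1, 2 or 3. By value, 9 of the 15 were lower at 6 h. The highest at 6 h, not called, were E2f2 (0.36 ± 0.11, limma adjusted p = 0.0675) and Tfdp2 (0.34 ± 0.12, adjusted p = 0.105).

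Of 11 other cyclins, kinases, phosphatases and regulators, not all of them of G1, 1 fell at 6 h and 2 at 24 h, and none rose (medians -0.07 and -0.27). Cdk4, the kinase partner of the D cyclins, fell at 6 h (-0.36 ± 0.09, limma adjusted p = 0.0408), a call that held in 5 of 16 fits with an array left out. Cdc25c, a phosphatase of mitotic entry, fell at 24 h (-0.97 ± 0.16, limma adjusted p = 0.00234), and so did Cks1b (-0.55 ± 0.10, adjusted p = 0.00591), a binding partner of the cyclin kinases. Cdk2, the partner of cyclin E, differed by -0.03 ± 0.17 at 6 h and -0.34 ± 0.17 at 24 h and was not called. None of the 6 measured Cdk inhibitor genes was called at either time (medians 0.08 and -0.16), and Cdkn2a was not tested. Of these, Cdkn1b, which encodes p27, differed by 0.23 ± 0.07 at 6 h (limma adjusted p = 0.0508), and Cdkn1a, which encodes p21, by 0.14 ± 0.17 at 6 h and -0.25 ± 0.17 at 24 h (limma adjusted p = 0.648 and 0.613). The difference between times was called for no gene of the 4 lists.

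**Figure D4:**
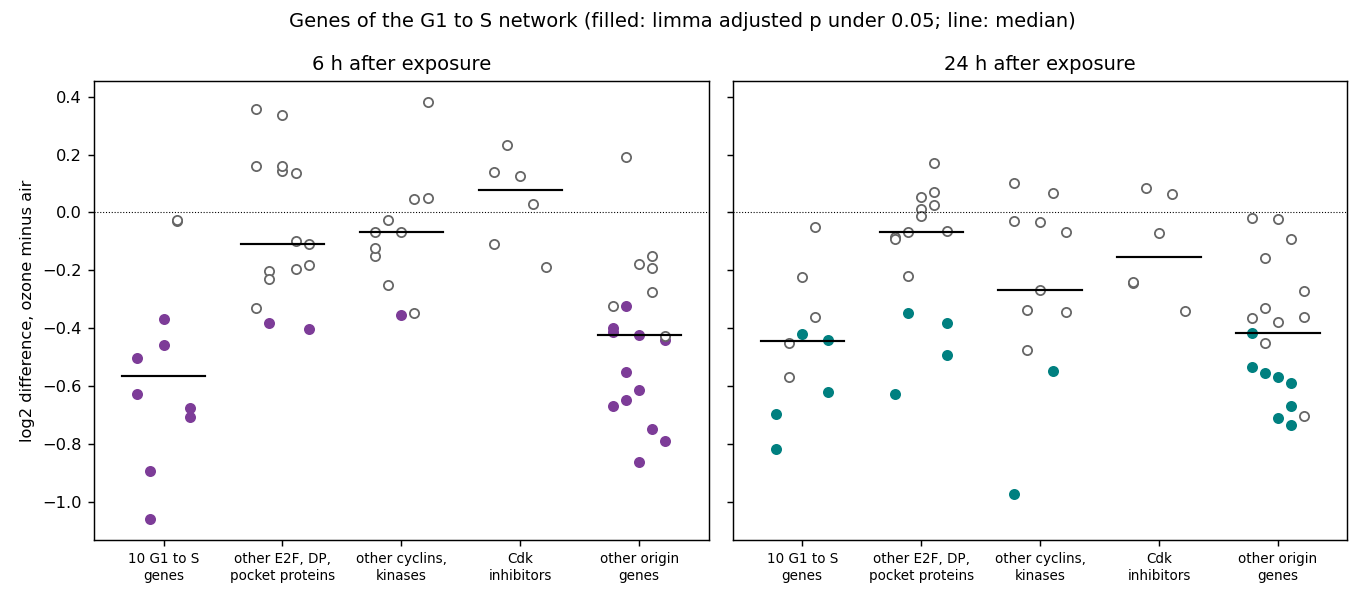
Difference between ozone and air lungs on the log2 scale (y axis) for the 10 genes and for the genes of 4 related lists (x axis), at 6 h and at 24 h; each point is 1 gene, filled points have a limma adjusted p under 0.05, and lines are list medians. The medians of the 10 genes are -0.56 and -0.45 and those of the 19 other origin genes -0.42 at both times.

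Markers of other cells that a lung sample can hold were read beside these falls. At 6 h no marker of erythroid precursors, thymocytes, heart muscle, oesophagus, pre-B cells or neutrophils was called. By value, all 8 erythroid (median difference 0.27), all 5 measured thymocyte (0.50), all 5 measured oesophagus (1.12), 7 of the 8 pre-B (0.24) and 6 of the 8 neutrophil markers (0.18) were higher in ozone lungs at 6 h, and 6 of the 7 heart muscle markers were lower (-0.32), against a median of 0.07 over all genes, and these medians kept their sign with normexp, quantile normalization and the deposited log2 values. Summed signals at 6 h, relative to the 75th percentile, overlapped between the groups: they spanned 17.0 to 29.9 in ozone lungs, against 15.4 to 20.2 in air lungs, for erythroid markers, and 0.241 to 0.452 in ozone lungs, against 0.178 to 0.265 in air lungs, for thymocyte markers. Those of the oesophagus list spanned 3.12 to 8.10 in ozone lungs, against 1.94 to 7.45 in air lungs, and those of the heart list 84.9 to 108.8 in ozone lungs, against 89.7 to 174.9 in air lungs. At 24 h 1 of the 8 erythroid markers fell, the red cell transcription factor Klf1 (-0.99 ± 0.23, limma adjusted p = 0.0304, a call lost without ozone or air replicate 2, 3 or 4). By value 5 of the 8 were lower, while Alas2 (0.42), the brightest of the list, Epor (0.19) and Tal1 (0.17) were higher. The erythroid median was -0.37, and the summed signal was 13.1 to 24.3 in ozone lungs, against 11.6 to 23.8 in air lungs. Of the 8 pre-B markers 2 rose at 24 h, Vpreb3 (0.94 ± 0.09, limma adjusted p = 0.000159) and Cd79b (0.70 ± 0.13, adjusted p = 0.0052), and the summed signal of the list was 4.91 to 6.52 in ozone lungs, against 3.19 to 3.81 in air lungs, with no overlap. The other 6 were not called, Vpreb1 (-0.06), Igll1 (-0.13) and Pax5 (-0.56) were lower by value, and the median of the list was 0.47 (-0.35 with normexp). The thymocyte sum at 24 h was 0.312 to 0.394 in ozone lungs, against 0.236 to 0.309 in air lungs, also with no overlap. None of its 5 markers, of which Rag1 is also in the pre-B list, was called, and its median was 0.21 (-0.48 with normexp). All 5 were dim, and Dntt, the brightest, averaged -2.44 in ozone lungs and -2.65 in air lungs at 24 h. The share of all genes with every ozone lung above every air lung was not counted. The summed neutrophil signal at 24 h was 62.4 to 86.1 in ozone lungs, against 72.9 to 98.3 in air lungs, with none of the 8 called. Their part in the falls of the 10 genes was not tested.

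To see which genes ran most like the set, each gene was centred on its 8 arrays of a time and correlated with the mean of the 10 over the 16 arrays. These correlations describe arrays that share exposure, slide and scaling, and carry no test. Among the 5 highest of all other genes were Mcm5 (Pearson r = 0.973), Dck (0.973), Rfc5 (0.972) and Rrm2 (0.966). Rrm2, a subunit of ribonucleotide reductase, differed between ozone and air lungs by -0.66 at 6 h and -0.84 at 24 h. Gene by gene, Ccne1 ran closest to Rfc5 (r = 0.985), Ccne2 to Eri1 (0.964), E2f1 to Gins2 (0.957), E2f8 to Rbl1 (0.983), Cdc6 to Mcm5 (0.963), Cdt1 to Lig1 (0.977) and Orc1 to Brca1 (0.959), all over 16 arrays. The genes nearest to the remaining 3 were Tcf15 for Ccnd1 (0.878), Tram2 for Cdc25a (0.922) and Rbm28 for Ccnd2 (0.838).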

How the data were processed

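Total RNA of 16 whole lungs, 1 per mouse, was primed with oligo(dT) and carried the dye Cy3, per the labels' protocols. The deposited scanner files hold 1-colour spot intensity values on a linear scale from Agilent Feature Extraction (version 10.7.1.1 per the file headers), with the background subtracted and spatial trends removed but no scaling across arrays. Their other deposited values are flags of spots well above background, saturated or uneven. The authors also deposited a log2 table, used here only as an alternative. Its array medians were nearly equal within each time point (6.41 at 6 h and 6.73 at 24 h), and the scaling behind this was not tested. The sources used here do not give the background treatment of that table.

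Control and uneven spots were left out (157 probes), spots of a probe were averaged, and each array's log2 signals were set relative to its own 75th percentile. No spot reached saturation. Probes well above background on at least 4 arrays were kept (32343), and the brightest per gene gave 21630 genes, 7338 of them with several probes. Names came from a RefSeq table by accession (25263 probes), symbol (6233) or synonym (1603), and 8075 probes kept the name in the files. Probes carry the mm9 positions of the array design, which does not state exon or UTR. limma 3.58.1 in R 4.3.3 (lmFit, eBayes with a trend) fitted 1 mean per group over all 16 arrays, and the fit was tested on simulated data. Adjusted p-values are two-sided, and the number of arrays limits the precision. Alternatives changed the background, scaling, filter, probe choice, slide, replicate block, sex (Xist as a covariate), weights, trend and arrays. The 10 genes, the lists and the tests were chosen with earlier results of these data known. All 10 genes are named in every comparison, as are up to 4 called genes of smallest p per list, all called markers, and the 5 genes most like the mean of the set and the 1 most like each gene, passing over clone and predicted names; 1 of these genes is not reported here. Cdk2, Cdkn1a and Cdkn1b were added for their role after their values were seen, and E2f2 and Tfdp2 as the highest of their list at 6 h.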

Additional observations from a re-analysis of the deposited data

Results flagged for a closer look

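Among 40 groups of 4 lungs (10 genes in 4 groups), 2 held a lung set apart from the other 3 by a gap that, as a share of the whole range of its group, exceeded Dixon's 95% critical value. Chance alone flags about 1 in 20 groups. E2f1 on ozone replicate 2 of 6 h was the lowest of its group at -2.61, where the next was -2.42 and the highest -2.39. Cdc6 on air replicate 3 of 6 h was the lowest of its group at -2.41, where the next was -1.59 and the highest -1.49.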

How the results depend on the processing

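No paired analysis rests on the design: arrays with the same replicate number correlated in their deviations from the group means at 0.0504, 0.14, 0.113 and 0.135 at 6 h and at 0.195, 0.145, 0.108 and -0.00694 at 24 h, so 3 of 4 pairs exceeded 0.1 at each time but 1 did not, not every array correlated best with its own number, and the labels tie no number to a litter. Same-numbered arrays also shared a slide. Ozone and air arrays of unlike number on the same slide correlated at 0.0519, 0.147, 0.117 and -0.0546 at 6 h. At 24 h these values were 0.138, 0.306, 0.0791 and 0.428. Whether numbers mark littermates was therefore not established. With the replicate block, Ccne1, Ccne2 and E2f1 were called at 6 h (3, against 8 without it) and Ccne1 and E2f8 at 24 h (2, against 5 without it). The count at 6 h was 5 with the normexp background, 2 with only the arrays of 6 h in the fit, and 0 within the slide of replicates 1 and 2 and within that of replicates 3 and 4, where each group keeps 2 arrays. The count at 24 h was 3 with Xist as a covariate, and 0 within the slide of replicates 1 and 2 and 3 within that of replicates 3 and 4. Leaving out 1 array gave counts of 2 to 8 at 6 h and 2 to 6 at 24 h. For the difference between times the count was 0 in every alternative run. The causes were not tested. The sign of Ccnd2 at 6 h turned with quantile normalization (0.0428), with the deposited log2 values (0.0435) and on leaving out an array (0.00669 to 0.033), and at 24 h with normexp (0.0511). That of Cdc25a at 6 h turned with normexp (0.0761), within the slide of replicates 3 and 4 (0.118) and on leaving out an array (0.0114 to 0.0607, against -0.14 at the lowest). Of the differences of the 10 genes under the alternatives that left out no single array, 264 kept sign and side of the threshold, 54 lost the call, 5 turned sign and 5 gained the call. The 264 include differences not called in the main fit, which had no call to lose, and differences between times of Ccne2 and E2f8. Calls were gained by Cdc6 at 24 h with normexp, with array weights and with only the arrays of 24 h, and by Cdc25a at 24 h with normexp and with array weights. Over all genes, calls at 6 h numbered 970, against 100 with only the arrays of 6 h, 247 with the replicate block, 546 without a trend, 558 with Xist, 1814 with array weights, 0 and 84 within the slides, and 196 to 1690 on leaving out an array. At 24 h they numbered 434, against 261 with the replicate block, 246 with Xist, 1738 with weights, 0 and 121 within the slides, and 264 to 530 on leaving out an array. For the difference between times they numbered 14, against 538 with normexp, 37 with quantile normalization, 441 with weights, 6 with slide as a block, 4 without a trend, 1 with the replicate block, 0 within either slide, and 0 to 263 on leaving out an array. Normexp moved the median of all genes to 0.14 at 6 h and -0.13 at 24 h, and put 802 of 955 calls at 6 h and 322 of 645 at 24 h on the lower side, against 675 of 970 and 286 of 434.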
